A study of Mus musculus with 4 samples.

Results

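The Hippo pathway was followed here through 10 genes across mouse preimplantation development. They comprised the nuclear effectors Yap1, Wwtr1 (which encodes TAZ) and Tead1, the kinases Lats1, Lats2 and Stk3 (MST2) with their adaptors Mob1a and Sav1, and the upstream regulators Nf2 (merlin) and Amotl2. The genes were chosen by symbol, and all 10 were found among the 20171 genes of the gene table. In the table of full-length isoforms, 24 of 68012 entries belonged to 7 of them, and Tead1, Lats2 and Amotl2 had none.

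In the Hippo pathway, the kinase MST2, held by the scaffold SAV1, activates LATS1 and LATS2 together with MOB1A. The LATS kinases phosphorylate YAP and TAZ, which are then held in the cytoplasm or degraded. When the kinases are inactive, YAP and TAZ enter the nucleus and act with TEAD factors on target genes. In the mouse morula the pathway is known to be off in outer, polarised cells, where TEAD4 with YAP turns on Cdx2 and the trophectoderm program, and on in inner cells, where NF2 and angiomotin proteins at cell junctions help to activate LATS. Much of this control is on the protein and its place in the cell, which mRNA levels do not measure.

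The cells were single oocytes, zygotes and blastomeres, sequenced as full-length cDNA with a unique molecular identifier (UMI) on each molecule. Embryos came from C57BL/6J females of 6 to 8 weeks mated with DBA/2NCrl males by the study's methods, whereas the sample labels give the strain as DBA/2J x C57BL/6J. All females had received PMSG and hCG, and no mutation or further treatment is stated for the oocytes and embryos. MII oocytes were taken at 20 h after hCG without mating, zygotes at 22 to 24 h, early 2-cell (E2C) embryos at 30 to 32 h, late 2-cell (L2C) embryos at 46 to 48 h, 4-cell embryos at 54 to 56 h, 8-cell embryos at 68 to 70 h, 16- and 32-cell embryos at 78 to 80 h and early blastocysts at 88 to 90 h. Mouse embryonic stem cells (mESCs) of the male line E14 Tg2A, grown on gelatin, served as a cultured reference of 1 line. The 4 deposited samples are sequencing runs and name no stage, so stage and embryo were read from the name of each cell. The embryo was the replicate, with 10 oocytes, 9 zygotes, 5 embryos at E2C, 6 at L2C, 5 at the 4-cell stage, 4 at the 8-cell stage and 4 at the 16-cell stage (43 in all, 121 cells). For 32-cell embryos (22 cells), blastocysts (13 cells) and mESCs (5 cells) no embryo or culture is named, and their values are given as medians and ranges without a test.

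The median number of UMIs per cell was 195670 in oocytes, 246466 in zygotes, 91609 at E2C, 58097 at L2C and between 32466 and 47437 from 4-cell to blastocyst cells. It was 22726 in the mESCs. Levels are copies per 100,000 UMIs of a cell, and an embryo has the mean of its cells. A single UMI was worth 0.511 copies in the median oocyte and 3.08 copies in the median 16-cell blastomere. The summed level of 4 oocyte markers fell from a median of 728 copies in oocytes to 42.0 at L2C. Later medians were 45.4 at 4-cell, 16.9 at 8-cell, 22.3 at 16-cell, 2.62 in 32-cell and 24.5 in blastocyst cells. The sum was 10.9 to 49.1 in the mESCs, where Bmp15 and Zp2 were at 0. Late 2-cell markers had a median of 8.51 copies at E2C and 3.5 at L2C, so the list did not set L2C above E2C. The 5 trophectoderm markers together had a median of 7.21 copies in oocytes, 7.39 at 4-cell and 31.7 at 8-cell. Of these, Cdx2 was at 0 from oocytes through the 4-cell stage. The 5 inner cell mass and pluripotent markers had medians of 3.99 copies in oocytes, 7.14 at 4-cell, 26.2 at 8-cell and 203 in mESCs. Of the 5 cumulus cell markers, 4 were in the table, with at most 1.24 copies in an oocyte or zygote and 0 from E2C on. Of the 3 sperm markers 2 were in the table, at no more than 4.89 copies in any cell.

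The proximal promoters of the 4 members on which most results turn are printed here, because 3 of these genes rose and 1 fell between the early and late 2-cell stages. Each run holds 300 bases around a RefSeq transcript start (GRCm38.p6), 5′ to 3′ on the gene's strand. Capitals mark the motifs searched on both strands, namely the SP/KLF box GGGCGG, the CCAAT box, the TATA box TATAAA, a PRD-like homeobox core GGATTA, an NR5A site AAGGTCA and the TEAD core GGAATG.
Wwtr1, chr3:57575861-57576160, minus strand: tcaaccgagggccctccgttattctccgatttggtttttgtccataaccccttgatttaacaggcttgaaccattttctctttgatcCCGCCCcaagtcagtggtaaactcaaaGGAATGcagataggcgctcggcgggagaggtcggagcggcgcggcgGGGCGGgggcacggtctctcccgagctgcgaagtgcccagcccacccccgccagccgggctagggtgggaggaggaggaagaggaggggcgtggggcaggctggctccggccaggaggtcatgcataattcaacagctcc
Mob1a, chr6:83325789-83326088, plus strand: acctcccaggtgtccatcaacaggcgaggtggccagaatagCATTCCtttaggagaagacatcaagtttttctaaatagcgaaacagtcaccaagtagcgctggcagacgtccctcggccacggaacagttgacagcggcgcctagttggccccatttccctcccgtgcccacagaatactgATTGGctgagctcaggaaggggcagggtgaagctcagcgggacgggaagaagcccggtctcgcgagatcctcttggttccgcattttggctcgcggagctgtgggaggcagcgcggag
Nf2, chr11:4849495-4849794, minus strand: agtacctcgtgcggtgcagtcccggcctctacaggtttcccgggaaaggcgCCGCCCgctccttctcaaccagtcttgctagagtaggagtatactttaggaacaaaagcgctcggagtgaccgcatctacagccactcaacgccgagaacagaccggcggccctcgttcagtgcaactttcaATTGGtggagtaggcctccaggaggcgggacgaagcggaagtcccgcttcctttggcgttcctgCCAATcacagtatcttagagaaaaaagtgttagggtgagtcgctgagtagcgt
Yap1, chr9:8004547-8004846, minus strand: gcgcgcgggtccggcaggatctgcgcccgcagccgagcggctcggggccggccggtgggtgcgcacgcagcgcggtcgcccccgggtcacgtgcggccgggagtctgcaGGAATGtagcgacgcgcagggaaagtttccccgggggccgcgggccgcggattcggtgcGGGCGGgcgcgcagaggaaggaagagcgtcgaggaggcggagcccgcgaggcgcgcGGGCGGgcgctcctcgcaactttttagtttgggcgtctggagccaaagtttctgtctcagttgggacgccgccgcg

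The letters of the TEAD core stood in the windows of Wwtr1, Mob1a and Yap1 and not in that of Nf2, and 14.7% of all 32851 promoters of this length held them. The SP/KLF box stood in the windows of Wwtr1, Yap1 and Nf2 (35.7% of all promoters) and the CCAAT box in those of Mob1a and Nf2 (37.4%). A second RefSeq start of Nf2, at chr11:4833086-4833385, held none of the 6 motifs in a window of 34.3% GC. The TATA box, the homeobox core and the NR5A site were in none of the 4 windows, against 13.6%, 7.06% and 4.72% of all promoters. The GC content was 61.7% for Wwtr1, 58.3% for Mob1a, 56.3% for Nf2 and 74.0% for Yap1, beside a median of 52.7% over all promoters.

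Yap1 (chr9:7931999-8004596, minus strand, mm10), which encodes the co-activator YAP, was present in every embryo. Its level was 27.1 copies in the lowest, 32.2 in the median and 43.4 in the highest oocyte (34.0 ± 5.74, SD, n = 10). In zygotes it was 25.2 in the lowest, 30.4 in the median and 47.4 in the highest (33.6 ± 8.59, SD, n = 9). The range of the zygotes enclosed that of the oocytes. The 5 E2C embryos held 37.5, 59.6, 59.0, 37.1 and 35.6 copies, all above the median oocyte. The 6 L2C embryos held 33.4, 31.6, 24.3, 15.0, 9.71 and 10.7 copies (lowest 9.71, median 19.6, highest 33.4), and all lay under the lowest E2C embryo. At the 4-cell stage the values were 7.31, 47.5, 12.8, 4.84 and 7.39 copies, so that embryo 2 stood apart from the other 4. Its value came from 3 and 4 UMIs in 2 cells, 1 of which had only 4985 UMIs in all. The level was 9.15, 9.54, 14.9 and 1.46 copies in 8-cell embryos and 6.80, 4.74, 5.66 and 6.09 in 16-cell embryos, each of the last below every oocyte.

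Wwtr1 (chr3:57455649-57575910, minus strand), which encodes TAZ, the paralogue of YAP, was nearly absent before the late 2-cell stage. It was at 0 in 8 of 10 oocytes, had 1 or more UMIs in 6 of 9 zygotes with at most 0.930 copies, and was at 0 in all 5 E2C embryos. All 6 L2C embryos held it, at 16.7, 5.5, 3.55, 19.6, 4.78 and 5.57 copies. No UMI of Wwtr1 was seen among 848348 UMIs of E2C embryos, which allows up to 0.354 copies (a count of 3, counting error only), so the L2C mean of 9.29 copies was at least 26.3-fold higher. In each of the 5 L2C embryos with both blastomeres sequenced, both held Wwtr1, with 1 to 11 UMIs each. The level then stayed between 1.58 and 10.5 copies in 4-cell, 1.62 and 9.45 in 8-cell and 6.10 and 13.2 in 16-cell embryos. These ranges overlapped each other and that of L2C.

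Tead1 (chr7:112679318-112906807, plus strand), a TEAD transcription factor, stayed low. Its mean was 0.112 copies in oocytes, 0.252 in zygotes, 0.11 at E2C, 0.269 at L2C, 0.952 ± 1.30 (SD, n = 5) at 4-cell, 1.37 ± 0.961 (SD, n = 4) at 8-cell and 0.990 ± 0.759 (SD, n = 4) at 16-cell. Between 1 and 6 embryos of a stage held any UMI, and the ranges of all 7 stages overlapped at 0. The 4-cell to 16-cell stages had the highest means but did not separate from each other.

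The LATS kinases, which phosphorylate YAP and TAZ, were seen from few UMIs in most embryos. Lats1 (chr10:7681214-7716460, plus strand) had stage means from 0.172 copies at 16-cell to 1.38 at 4-cell, and every stage held embryos at 0. Lats2 (chr14:57689662-57758388, minus strand) had means between 0.109 and 0.383 copies except at the 8-cell stage, where it was 1.07 ± 0.981 (SD, n = 4). The ranges of all 7 stages overlapped for both genes, so their means give no clear order of stages.

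Mob1a (chr6:83326016-83343776, plus strand), the activating subunit of LATS, increased until the late 2-cell stage. Its mean was 0.681 ± 0.660 (SD, n = 10) copies in oocytes, 1.69 ± 0.988 (SD, n = 9) in zygotes and 3.07 ± 2.01 (SD, n = 5) at E2C. The 6 L2C embryos held 33.4, 14.7, 10.5, 14.8, 9.94 and 16.1 copies, all above the highest E2C embryo at 5.99. The value of 33.4 belonged to embryo 1, a single cell of 17971 UMIs. Later means were 9.91 ± 8.77 (SD, n = 5) at 4-cell, 4.82 ± 1.08 (SD, n = 4) at 8-cell and 4.54 ± 1.85 (SD, n = 4) at 16-cell.

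Stk3 (chr15:34875496-35178921, minus strand), the kinase MST2 at the top of the cascade, peaked at E2C. It had 2.93 ± 1.18 copies in oocytes (SD, n = 10) and 3.31 ± 2.27 in zygotes (SD, n = 9). The E2C embryos held 12.6, 10.2, 21.9, 9.30 and 5.94 copies. At L2C it was at 0 in 5 of 6 embryos, with 3.55 copies in embryo 3, and no later embryo exceeded 2.06 copies. Its scaffold Sav1 (chr12:69965012-69987002, minus strand) followed a lower course, with 2.59 ± 1.17 copies in oocytes (SD, n = 10), 1.80 ± 0.588 in zygotes (SD, n = 9) and 2.04 ± 0.951 at E2C (SD, n = 5). Every oocyte, zygote and E2C embryo held Sav1, whereas it was at 0 in 5 of 6 L2C and in all 5 4-cell embryos.

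Nf2 (chr11:4765845-4849536, minus strand), which encodes the junctional tumour suppressor merlin, formed a plateau over the late 2-cell and 4-cell stages. Oocytes held 2.92 to 11.2 copies (median 6.35, n = 10) and zygotes 2.73 to 9.74 (median 4.87, n = 9). E2C embryos held 4.69, 6.36, 6.85, 5.65 and 7.57 copies. The level was 27.8, 16.2, 21.3, 24.6, 24.7 and 14.4 copies in the L2C embryos and 11.4, 27.4, 22.6, 19.8 and 20.1 in the 4-cell embryos. It was 3.01, 5.28, 6.35 and 5.74 copies in 8-cell and 3.47, 2.96, 2.54 and 2.56 in 16-cell embryos. The stages L2C and 4-cell overlapped each other, and none of their embryos overlapped with E2C or 8-cell embryos.

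Amotl2 (chr9:102716672-102733418, plus strand), an angiomotin protein of cell junctions, appeared late. It was seen in 2 of 10 oocytes (at most 0.600 copies), in no zygote, E2C, L2C or 4-cell embryo, in 1 of 4 8-cell embryos (0.365 copies) and in 3 of 4 16-cell embryos at 1.98, 0.469 and 1.96 copies. No UMI among 2435838 in zygotes allows up to 0.123 copies, so the 16-cell mean of 1.10 copies was at least 8.96-fold higher. Against the E2C, L2C and 4-cell stages, which had fewer UMIs, the same bound was 3.12-, 2.21- and 1.93-fold.

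**Figure D1:**
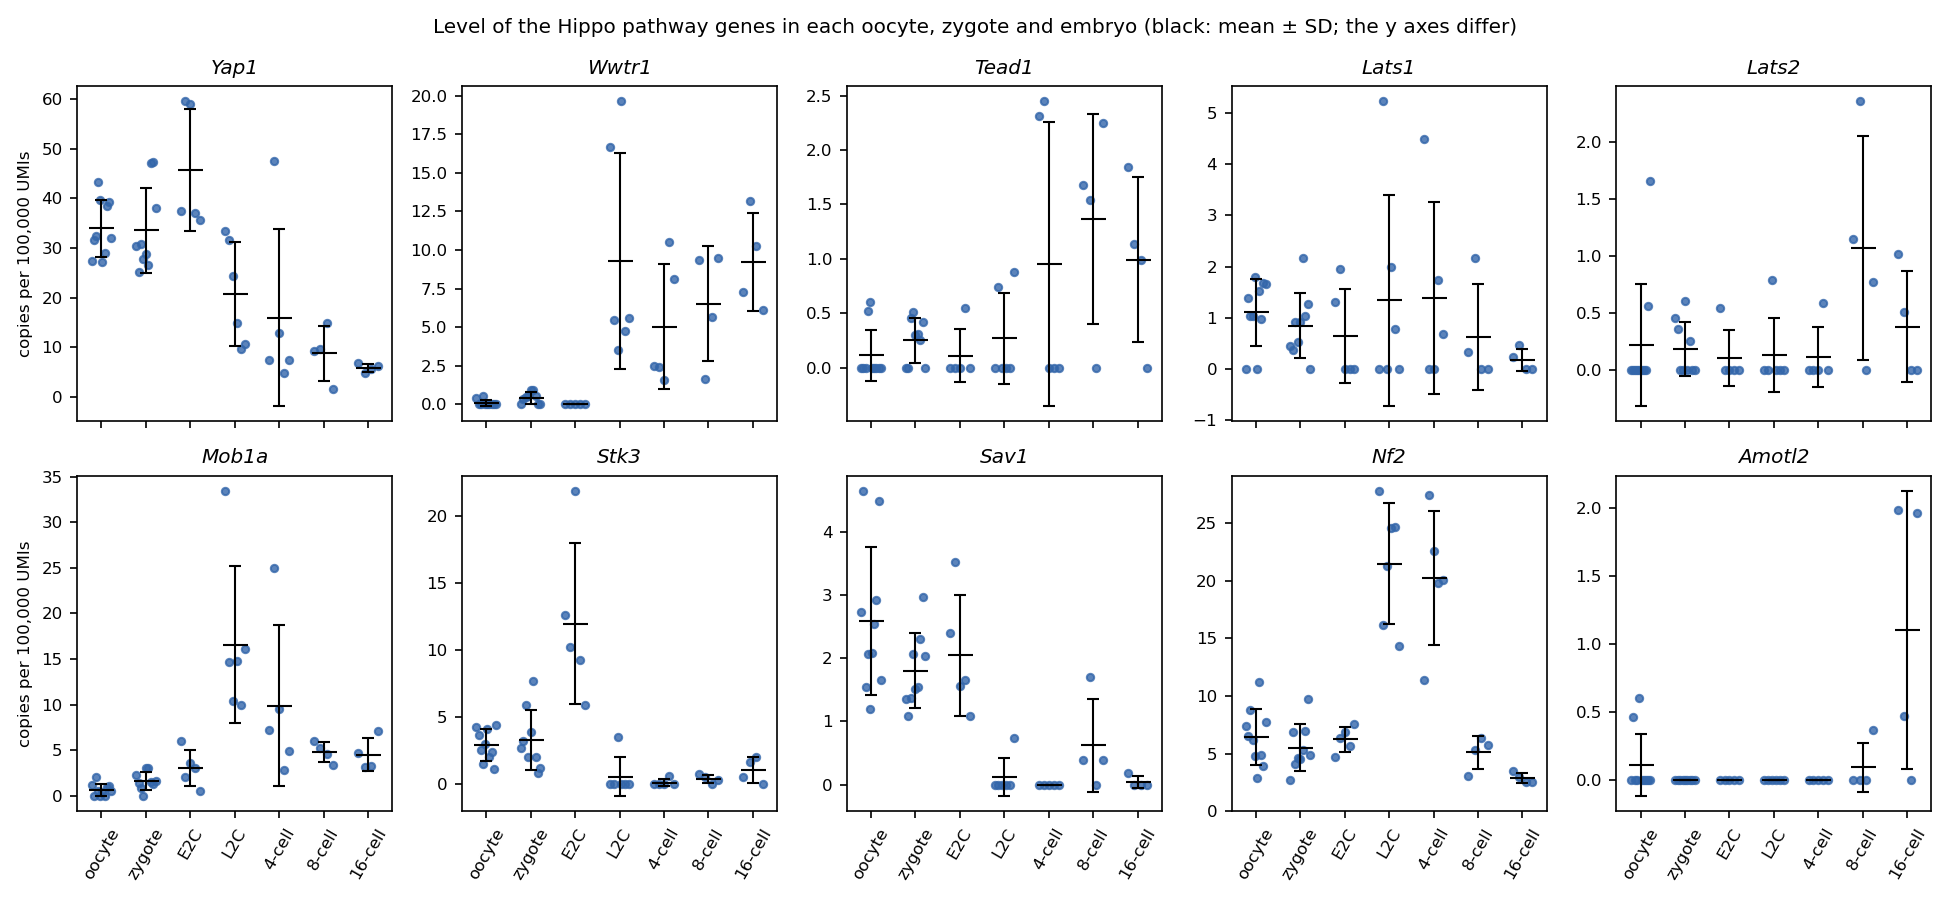
Copies per 100,000 UMIs of each of the 10 Hippo pathway genes (y axes, which differ between panels) in every oocyte, zygote and embryo (blue points) at 7 stages (x axis), with the mean ± SD in black. Yap1 lies below every E2C value in all later embryos except 4-cell embryo 2, Wwtr1 is at 0 in all 5 E2C and above 3.5 copies in all 6 L2C embryos, and Nf2 is highest at L2C and 4-cell.

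Adjacent stages were compared to ask between which of them these genes changed. Of the 10 genes, 9 passed the filter on low values (at least 1 copy in at least 4 embryos) and entered the test together with 11682 genes in all, whereas Amotl2 did not. A gene was called with an unadjusted p under 0.01 and a log2 fold change over 1 in size in limma, on log2(copies + 1), which understates the change of low genes. The embryo weights in limma mean that an estimate can differ from the ratio of the plain means, and each adjusted p is the Benjamini-Hochberg value across the whole gene table tested. Values are shares of a cell's UMIs, so a loss of molecules of a gene cannot be told apart from a gain of all other molecules.

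Between oocyte and zygote 0 of the 9 genes were called, beside 3.24% of all genes tested. At an unadjusted p under 0.05, Mob1a (log2 fold change 0.65, SE 0.227, adjusted p = 0.0459) and Sav1 (-0.37, SE 0.180, adjusted p = 0.173) were the only members past that limit in limma, both under the fold required. With edgeR on the recovered UMIs, whose filter left 5 members (Yap1, Wwtr1, Mob1a, Stk3 and Nf2), 1 was called in this comparison.

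From zygote to E2C, 1 member of 9 was called, beside 7.27% of all genes. Stk3 rose from a mean of 3.31 to 12 copies (log2 fold change 1.64, SE 0.318, adjusted p = 1.38e-04 in limma), although the highest zygote at 7.75 copies lay above the lowest E2C embryo at 5.94. Yap1 was 0.49 higher (SE 0.260, adjusted p = 0.220) and Mob1a 0.62 higher (SE 0.312, adjusted p = 0.185) on the log2 scale, neither past the threshold.

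The transition from early to late 2-cell, when the embryonic genome is broadly activated, moved most of the members. Wwtr1, Mob1a and Nf2 rose while Yap1, Stk3 and Sav1 fell, making 6 of 9 called. Among all genes 48.4% were called in this comparison, 25.6% higher and 22.8% lower, so a call in either direction was common at this step. The median log2 fold change was 0.21 over the 9 members and 0.03 over all genes tested.

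The effectors Yap1 and Wwtr1 moved in opposite directions. Yap1 fell by 1.31 on the log2 scale (SE 0.358, adjusted p = 0.0014) and Wwtr1 rose by 2.86 (SE 0.393, adjusted p = 7.20e-09). Among the kinase components, Stk3 fell by 3.21 (SE 0.437, adjusted p = 5.89e-09) and its scaffold Sav1 fell by 1.40 (SE 0.339, adjusted p = 3.41e-04). Wwtr1 passed the filter through L2C to 16-cell embryos alone, so its rise at L2C follows largely from how it entered the test. Sav1 passed the filter through oocytes, zygotes and E2C embryos, with 1 8-cell embryo besides, so the same holds for its fall. Stk3 passed through those early stages with 1 L2C and 2 16-cell embryos besides, and its fall is limited in the same way. Mob1a rose by 1.91 (SE 0.429, adjusted p = 1.24e-04) and the upstream Nf2 rose by 1.55 (SE 0.335, adjusted p = 7.26e-05). In all 6 genes no E2C embryo overlapped with an L2C embryo. How often embryos did not overlap over all genes or isoforms was not counted, here or in the later comparisons. A lack of overlap is therefore only a description of the values. Lats1, Lats2 and Tead1 were not called. Lats2 and Tead1 lay below 1 copy in every embryo of both stages, and Lats1 reached 5.23 copies in L2C embryo 2, from 3 UMIs in each blastomere, with 0 in the median E2C embryo. The sequencing run was known for 3 of 5 E2C and 2 of 6 L2C embryos, and its part in these differences was not tested.

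From L2C to 4-cell, 0 of 9 members were called, beside 6.69% of all genes. Yap1 was 1.05 lower on the log2 scale (SE 0.405, adjusted p = 0.152 in limma) and Mob1a 1.16 lower (adjusted p = 0.199), the 2 members with an unadjusted p under 0.05. With edgeR 1 of the 5 members it tested was called. Without 4-cell embryo 2 or without embryo 3, Yap1 was past the threshold, at -1.21 and -1.17. Without the shallow L2C embryo 1 and 4-cell embryo 2 together, 1 member was also called.

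From 4-cell to 8-cell, Nf2 was the only member called of 9, beside 15.0% of all genes. It fell by 1.83 on the log2 scale (SE 0.361, adjusted p = 1.70e-04), from a mean of 20.3 to 5.09 copies with no overlap between embryos. All 4-cell, 8-cell and 16-cell embryos were assigned a run, 4-cell embryo 2 and 16-cell embryo 4 from cell counts alone. With the run as a term the fall of Nf2 was 1.75. Tead1 and Lats2 were 0.94 (SE 0.323, adjusted p = 0.0351) and 0.89 (SE 0.316, adjusted p = 0.0446) higher, just under the fold required.

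From 8-cell to 16-cell, 0 of 9 members were called in limma, beside 3.36% of all genes, and none had an unadjusted p under 0.05. The lowest unadjusted p was 0.104, for Sav1. Yap1 had means of 8.75 ± 5.51 and 5.82 ± 0.864 copies (SD, n = 4 each), and its 8-cell range enclosed the 16-cell range.

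Over the whole span from oocyte to 16-cell, 6 of 9 members were called, 3 higher and 3 lower, beside 50.8% of all genes (26.8% higher and 24.0% lower). Yap1 fell by 2.29 on the log2 scale (SE 0.287, adjusted p = 2.56e-10) and Wwtr1 rose by 3.10 (SE 0.315, adjusted p = 2.57e-13), both without overlap. Mob1a rose by 1.75 (SE 0.344, adjusted p = 1.13e-05) and Sav1 fell by 1.66 (SE 0.272, adjusted p = 2.93e-07). Tead1 rose by 1.01 (SE 0.241, adjusted p = 2.02e-04) and Stk3 fell by 1.09 (SE 0.350, adjusted p = 0.00529), with overlapping embryos, and both calls were lost without 16-cell embryo 1 (0.53 and -0.95). Stk3 was also not called without embryo weights, with summed isoforms (-0.55), with a pseudocount of 5 (-0.43) or in edgeR (-1.50). Mob1a was not called with summed isoforms (0.24) or a pseudocount of 5 (0.73), nor Sav1 with a pseudocount of 5 (-0.56). Tead1, which passed the filter through 4-cell to 16-cell embryos alone, was also not called without 16-cell embryo 2 (0.84), without embryo weights (0.77), without a filter (0.87), with a pseudocount of 5 (0.30) or after quantile normalization (0.93). Nf2 was 0.83 lower (adjusted p = 0.00569), under the fold required. As from E2C to L2C, the directions of Wwtr1, Sav1 and Stk3 follow largely from how they entered the test. The same holds here for the rise of Tead1. This comparison shares its oocytes and 16-cell embryos with the adjacent ones.

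**Figure D2:**
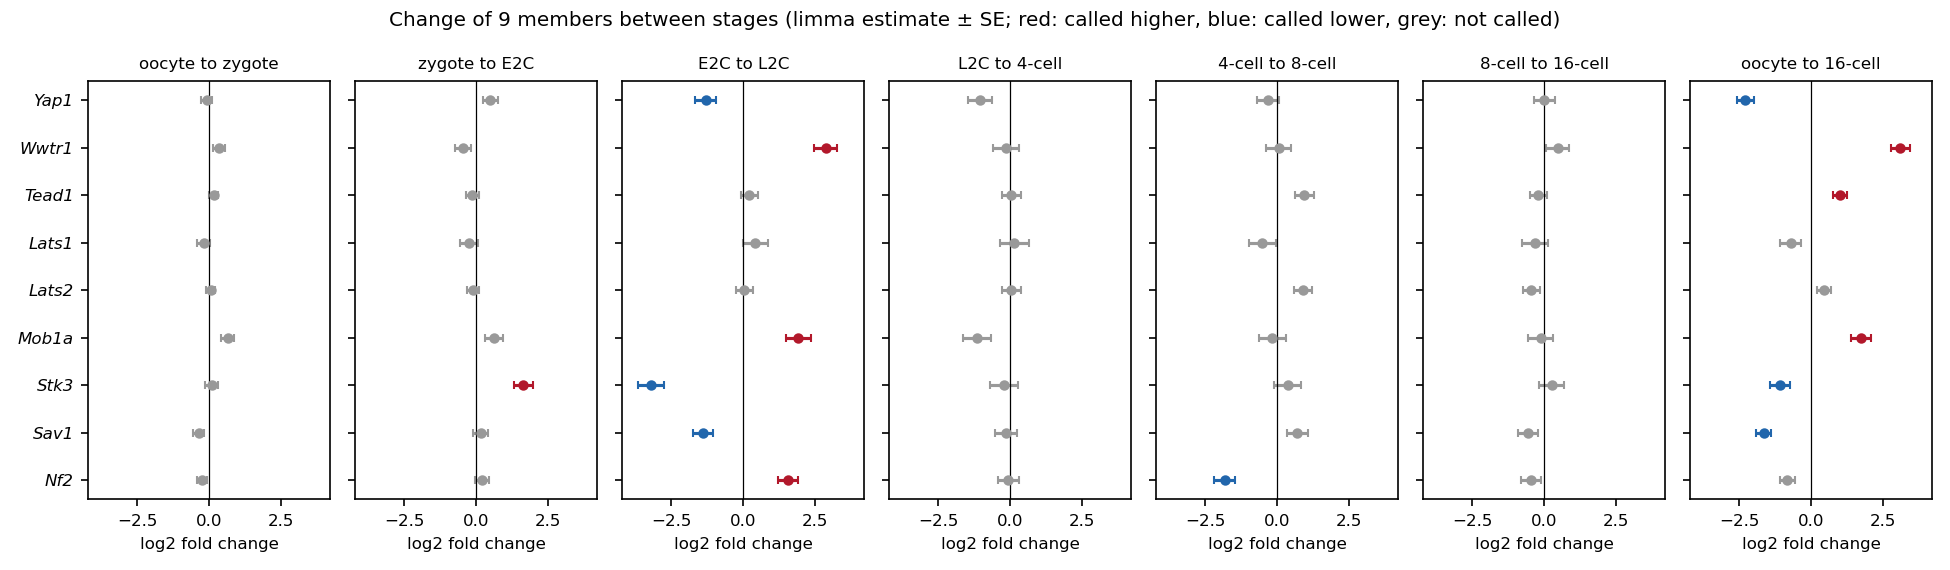
Log2 fold change of 9 members (rows) between stages (7 panels), as the limma estimate ± SE on the x axis, with called genes in red (higher) and blue (lower) and the others in grey. Wwtr1, Mob1a and Nf2 are red and Yap1, Stk3 and Sav1 blue from E2C to L2C, and Nf2 is the only coloured gene from 4-cell to 8-cell.

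The full-length isoforms covered the members unevenly. Over the 43 oocytes, zygotes and embryos, the isoform table held 68.4% of the UMIs that the gene table assigned to all genes. The share was 66.8% for Wwtr1 (181 of 271 UMIs), 19.8% for Mob1a (57 of 288), 18.5% for Stk3 (50 of 270), 8.77% for Nf2 (54 of 616), 6.58% for Lats1 (5 of 76), 2.46% for Sav1 (3 of 122) and 0.878% for Yap1 (19 of 2165). Isoform values of Yap1, Lats1 and Sav1 therefore rest on few molecules, and they differ in scale from the gene values. In the isoform table the values of a cell sum to between 84419 and 97144 copies (median 95142), so their total also counted UMIs that the table does not list. The cause of the low shares was not tested.

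The most abundant full-length Wwtr1 isoform, PB.47201.1, matched an annotated transcript in all splice sites (full splice match) with 7 exons over 1770 bases, held the whole coding sequence and spanned chr3:57458651-57575903. It was at 0 in the 5 E2C embryos and seen in 4 of 6 L2C, 4 of 5 4-cell and all 8-cell and 16-cell embryos. Its mean was 2.81 ± 3.30 (SD, n = 6) copies at L2C, 3.74 ± 3.13 (SD, n = 5) at 4-cell, 4.61 ± 3.39 (SD, n = 4) at 8-cell and 5.65 ± 3.36 (SD, n = 4) at 16-cell. Coding shares are of all coding bases annotated for a gene over its transcripts. An isoform with start and stop codons can therefore hold only part of them. The shorter PB.47201.9, with 2 exons over 503 bases, no start codon and 21.5% of the coding bases, was seen in 2 of 6 L2C embryos from 3 and 2 UMIs. Its mean of 4.48 ± 9.74 (SD, n = 6) copies at L2C rested on embryo 1, at 24.2 copies.

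The Mob1a isoform PB.62853.2 had 3 exons over 611 bases at chr6:83326026-83332655 and matched only part of an annotated transcript (incomplete splice match). It held a start and a stop codon annotated for Mob1a and 40.1% of the gene's coding bases. It was found in all 6 L2C embryos, at 2.14 to 8.08 copies (mean 5.27 ± 2.77, SD, n = 6). It was found in 1 of 5 embryos at E2C and in 1 of 5 at 4-cell, with means of 0.141 and 0.134 copies. The longer Mob1a isoforms PB.62853.1 (1633 bases) and PB.62853.5 (4382 bases) had 6 exons each, with start and stop codons and the same coding share of 94.5%. They ended at positions 83340980 and 83343775.

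The Nf2 isoform with the highest mean over the 43 embryos, PB.9788.114, was a full splice match of 2 exons over 966 bases at chr11:4829759-4849474. It held the start codon, no annotated stop codon and 18.6% of the gene's coding bases. It had a mean of 3.98 ± 2.30 (SD, n = 6) copies at L2C, in 5 of 6 embryos, and of 1.42 ± 1.07 (SD, n = 5) at 4-cell. It was seen in 1 of 5 E2C and 1 of 4 8-cell embryos. The 16-exon isoforms PB.9788.53 (3782 bases) and PB.9788.8 (4639 bases) held the start and stop codons and 84.7% of the coding bases, from 6 and 10 UMIs over all embryos. The 11-exon full splice match of Stk3, PB.26141.11 (2742 bases), was seen in 5 of 10 oocytes, 3 of 9 zygotes and 3 of 5 E2C embryos and in none from L2C on. Its highest mean was at E2C, at 1.09 ± 1.01 copies (SD, n = 5).

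Of the 24 isoforms, 6 passed the filter and entered the test with 29409 isoforms in all. From E2C to L2C 3 of the 6 were called, all higher, beside 26.0% of all isoforms. None of the 3 reached 1 copy in an E2C embryo. PB.62853.2 passed the filter through the 6 L2C embryos, with 1 zygote and 1 16-cell embryo besides. PB.9788.114 passed through L2C and 4-cell embryos and PB.47201.1 through L2C to 16-cell embryos. That the 3 were higher at L2C therefore follows largely from how they entered the test. The same holds for PB.47201.1 from oocyte to 16-cell. It also holds for the falls of PB.62853.2 from L2C to 4-cell and of PB.9788.114 from 4-cell to 8-cell. PB.62853.2 of Mob1a rose by 2.22 on the log2 scale (SE 0.342, adjusted p = 4.49e-07), PB.9788.114 of Nf2 by 2.13 (SE 0.348, adjusted p = 1.51e-06) and PB.47201.1 of Wwtr1 by 1.58 (SE 0.455, adjusted p = 0.0051). From L2C to 4-cell, PB.62853.2 fell by 2.17 (SE 0.368, adjusted p = 2.02e-04) with no overlap, 1 of 6 called beside 4.29% of all isoforms. From 4-cell to 8-cell, PB.9788.114 fell by 1.21 (SE 0.350, adjusted p = 0.0191), 1 of 6 beside 7.93%, and without 4-cell embryo 5 it was at -0.91 and no longer called. From oocyte to 16-cell, PB.47201.1 rose by 2.44 (SE 0.333, adjusted p = 5.65e-09), 1 of 6 beside 31.2%. The filter of edgeR left PB.47201.1 alone of the 24, which was called from E2C to L2C and from oocyte to 16-cell.

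**Figure D3:**
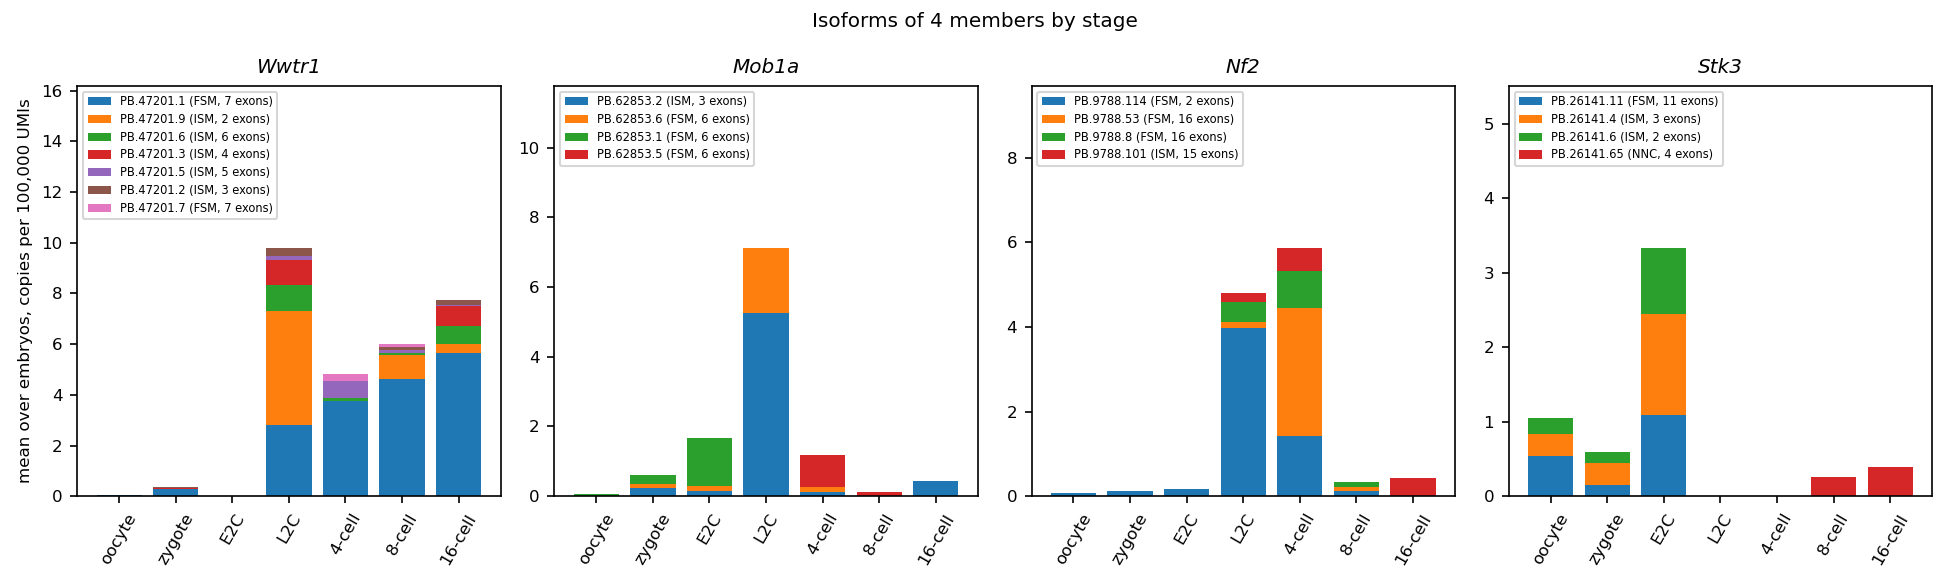
Mean over embryos of each isoform of Wwtr1, Mob1a, Nf2 and Stk3, stacked, in copies per 100,000 UMIs (y axis), at 7 stages (x axis). The 3-exon Mob1a isoform PB.62853.2 stands out at L2C, the 7-exon Wwtr1 isoform PB.47201.1 is present from L2C to 16-cell, and PB.47201.9 is seen at L2C from 5 UMIs.

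The last 30 bases of 8 isoforms are printed here because members differed in where their molecules ended. For PB.62853.2 of Mob1a and PB.9788.114 of Nf2 no end could be placed in an annotated transcript, and none is printed. They were read from annotated transcripts (GENCODE vM21, mm10), 5′ to 3′, with a polyadenylation signal (AATAAA or ATTAAA) in capitals.
Wwtr1 PB.47201.9, chr3:57458717-57458746, minus strand: agaAATAAAtactctcttttcattttctgc
Wwtr1 PB.47201.1, chr3:57458651-57458680, minus strand: ttgtgcagaatgactttagagaatgtctgc
Yap1 PB.74453.15, chr9:7932003-7932032, minus strand: cttttacAATAAAccaatttttataatctt
Nf2 PB.9788.8, chr11:4765845-4765874, minus strand: ttttAATAAAaactctaagctgctatagtc
Nf2 PB.9788.53, chr11:4766702-4766731, minus strand: tatgccaggccttccttggctttttcattt
Mob1a PB.62853.5, chr6:83343746-83343775, plus strand: ttttgATTAAAtttggagagttgtctttgc
Mob1a PB.62853.1, chr6:83340951-83340980, plus strand: aaacttgtttgggattgtcttcatgtctag
Stk3 PB.26141.4, chr15:34875498-34875527, minus strand: aagacaAATAAAttccattgtgccacccag

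Both Wwtr1 ends lay about the same distance, 3068 and 3002 bases, before the annotated end of the transcript, and the end of PB.47201.9 held AATAAA within its last 30 bases while that of PB.47201.1 did not. Yap1 PB.74453.15, a 2-exon isoform of 1244 bases with an unannotated splice site and no part of the coding sequence, ended 4 bases from the annotated end. The end of Nf2 PB.9788.53 lay 857 bases before the annotated end and held neither signal.

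Intact and split oocytes of a separate run gave a second view of the maternal levels, in isoform counts of 129744 to 289774 UMIs per column over 49271 isoforms. By the study's methods, oocytes were divided to test the effect of input, and the names give 4 intact oocytes, 6 columns of 1/2 oocytes and 6 of 1/4 oocytes. Whether pieces came from the same oocyte is not named, so no test was made. Yap1 was at 23.9, 18.6, 26.0 and 21.8 copies in the intact oocytes, at 22.1 ± 4.16 (SD) over the 6 columns of 1/2 oocytes and at 19.3 ± 3.19 (SD) over the 6 of 1/4 oocytes. The 3 ranges overlapped. The isoform PB.74453.15 took 673 Yap1 UMIs there, 196 in intact, 243 in 1/2 and 234 in 1/4 oocytes, whereas it had 8 UMIs over the 43 embryos of the other runs. The cause of that difference between the runs was not tested, and it leaves the isoform values of Yap1 incomparable between them. The same holds for other members. PB.9788.8 of Nf2 had 0 UMIs in the 10 oocytes of the other runs and 39 in the 4 intact oocytes, PB.5512.14 of Lats1 had 0 and 12, and PB.16880.188 of Sav1 had 1 and 11.

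Nf2 was at 4.46 ± 1.21 copies in intact oocytes (SD, n = 4), 5.28 ± 1.60 in 1/2 oocytes and 5.77 ± 0.943 in 1/4 oocytes (SD, 6 columns each), mostly from the 16-exon PB.9788.8 with 159 UMIs. Stk3 was at 4.13 ± 0.670, 3.27 ± 1.87 and 3.94 ± 2.38 copies in the same order. Sav1, Lats1 and Mob1a were each at 2.37 copies or less in every column. No isoform of Wwtr1 was listed in that table, and Tead1, Lats2 and Amotl2 have no isoform entry in either table, so their level in these oocytes was not measured.

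Blastomeres within an embryo differed widely in the few UMIs they held of the effectors. At the 16-cell stage Yap1 was seen in 29 of 38 cells (median 4.16 copies, highest 18.7) and Wwtr1 in 32 of 38 (median 9.14, highest 32.3). In 16-cell embryo 2, with 15 cells sequenced, 14 held Wwtr1 and its level ran from 0 to 28.0 copies, from 0 to 11 UMIs. In embryo 1, 10 of 11 cells held it, at 0 to 18.4 copies. Embryo 3 held it in 5 of 7 cells and embryo 4 in 3 of 5. Yap1 reached 9 UMIs in a cell of embryo 1 and was at 0 in cells of all 4 embryos. With cells of 6934 to 60831 UMIs these counts cannot separate a difference between blastomeres from sampling, and the position of a cell in the embryo, inner or outer, was not recorded in the names.

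Later cells kept the same effectors. In 32-cell cells Yap1 had a median of 9.86 copies (21 of 22 cells, highest 22.5) and Wwtr1 of 8.61 (18 of 22, highest 30.6). In blastocyst cells the medians were 6.98 copies for Yap1 (12 of 13 cells) and 7.53 for Wwtr1 (10 of 13). In the 5 mESCs Yap1 was seen in 2 cells and Wwtr1 in none. Those cells had 22726 UMIs in the median, so that 1 UMI was worth 4.40 copies.

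Amotl2, unlike at the early stages, was seen in 10 of 38 16-cell cells, in 11 of 22 32-cell cells (median 1.36 copies, highest 11.3), in 6 of 13 blastocyst cells (highest 11) and in 1 of 5 mESCs. Nf2 had medians of 2.38, 2.51 and 3.95 copies in 16-cell, 32-cell and blastocyst cells, seen in 22 of 38, 14 of 22 and 9 of 13 cells. Mob1a was in all 13 blastocyst cells, in 17 of 22 32-cell and in 25 of 38 16-cell cells. Tead1 was seen in 11 of 38, 13 of 22 and 4 of 13 cells, and Lats1, Lats2, Stk3 and Sav1 were each in at most 10 cells of any of these stages.

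Because a deeper cell shows more genes, each cell was also thinned to 5000 UMIs, which left out 1 4-cell blastomere. Yap1 was then detected in 8 of 10 oocytes, 7 of 9 zygotes, 8 of 10 E2C, 8 of 11 L2C, 5 of 16 4-cell, 5 of 26 8-cell, 10 of 38 16-cell, 9 of 22 32-cell and 2 of 13 blastocyst cells. Wwtr1 was detected in 0 of 29 oocytes, zygotes and E2C cells, in 6 of 11 at L2C, 4 of 16 at 4-cell, 6 of 26 at 8-cell and 16 of 38 at 16-cell. At equal depth Nf2 was seen in 4 of 11 L2C and 12 of 16 4-cell cells, but in 5 of 26 8-cell cells. Amotl2 was seen only in 3 of 22 32-cell cells. At this depth 1 UMI is worth 20 copies, so only the shares of cells are read.

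**Figure D4:**
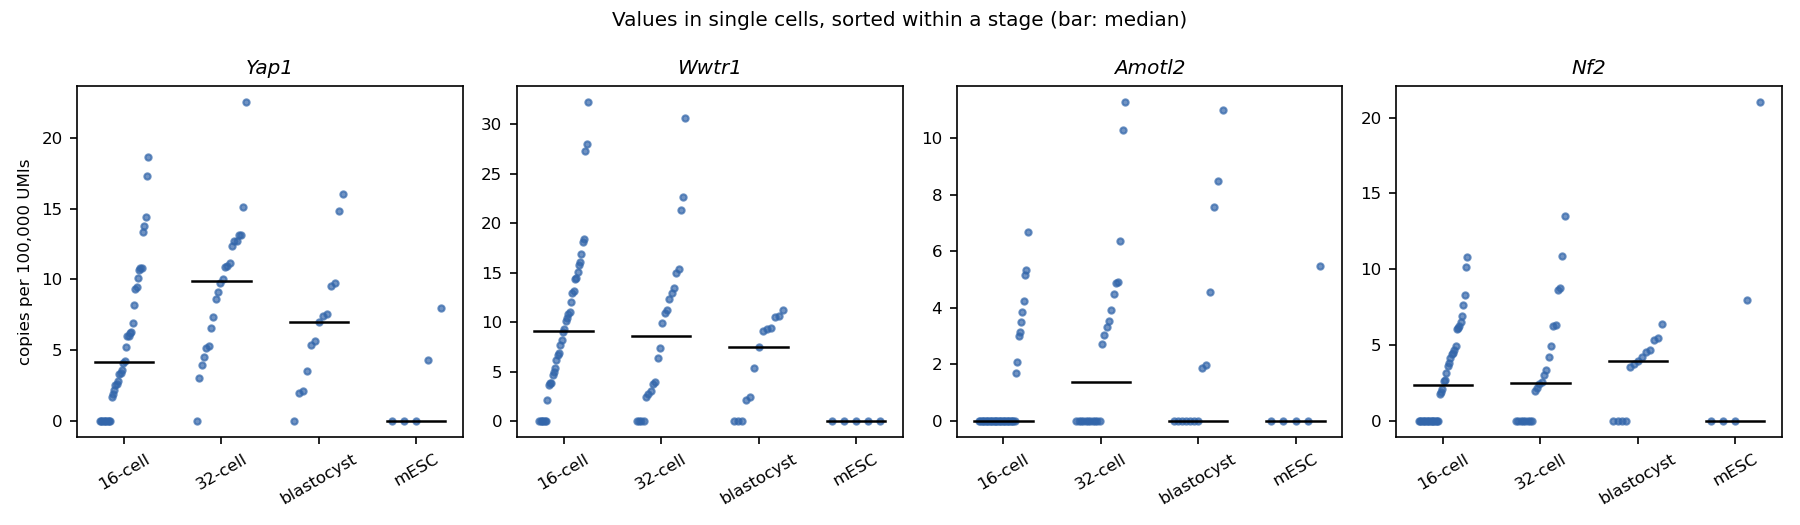
Copies per 100,000 UMIs (y axes) of Yap1, Wwtr1, Amotl2 and Nf2 in single 16-cell, 32-cell, blastocyst and mESC cells (x axis), sorted within a stage, with the median as a bar. Yap1 and Wwtr1 spread from 0 to 22.5 and 32.3 copies, Wwtr1 is at 0 in all 5 mESCs, and Amotl2 reaches 11.3 copies in a 32-cell cell.

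The other genes of the pathway, 57 chosen by role, were examined to set the members in context. Of these 55 were in the gene table and 43 were tested, and the counts called higher and lower were 0 and 2 from oocyte to zygote, 0 and 3 from zygote to E2C, 10 and 10 from E2C to L2C, 0 and 3 at the step to 4-cell, 2 and 2 at that to 8-cell, 5 and 0 from 8-cell to 16-cell and 12 and 8 from oocyte to 16-cell. Among all genes tested 3.24%, 7.27%, 48.4%, 6.69%, 15.0%, 3.36% and 50.8% were called in the same order of comparisons. From E2C to L2C the 20 of 43 called stood beside the 48.4% of all genes, and the median log2 fold change was -0.05 for the list and 0.03 for all genes.

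By role, the 9 genes of the STRIPAK phosphatase complex, which removes phosphate from MST kinases, were split into 4 higher and 2 lower at L2C. Among all genes 25.6% were called higher and 22.8% lower at that step. Sike1, a STRIPAK subunit, rose from 0.327 ± 0.486 to 12.9 ± 4.89 copies (log2 fold change 3.55), while Strn, its scaffold striatin, fell from 51.4 ± 14.7 to 15.3 ± 17.7 (-2.47). Ywhaz, a 14-3-3 protein that holds phosphorylated YAP in the cytoplasm, fell from 31.9 ± 9.32 to 6.02 ± 3.14 copies (-2.45). Tead4, the TEAD factor of the trophectoderm and named here after its values were seen, was at 0 in E2C embryos and at 9.08 ± 3.98 copies at L2C (SD, n = 6), at least 25.7-fold higher.

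In the other comparisons, Cdh1 (E-cadherin) fell from zygote to E2C from 10.6 ± 4.85 to 2.71 ± 2.18 copies (log2 fold change -1.62). Rock1, Taok1 and Wwc2 fell from L2C to 4-cell by 1.68, 1.55 and 1.40 on the log2 scale, with overlapping embryos. Btrc, the ubiquitin ligase subunit that marks YAP for degradation, had 5.74 ± 4.09 copies in 4-cell embryos (SD, n = 5) and 25.5 ± 7.47 in 8-cell embryos (SD, n = 4), a rise of 2.21 on the log2 scale. From 8-cell to 16-cell the 5 genes called higher, all under 10 copies and named after their values were seen, were Cdx2, Amot, Gata3, Csnk1d and Pard3. Only 1 was called without 16-cell embryo 1, and 2 without embryo 2 or with the run as a term. From oocyte to 16-cell Ywhab rose by 2.65 and Btrc by 2.52, and Wwc2 fell by 2.79. Of the 7 genes listed as targets, only Cdx2 and Gata3 entered the test, and both are among those called higher at 16-cell above. The known YAP targets Ccn1 and Ccn2 of the same list were scarce. Ccn1 had no more than 0.387 copies and Ccn2 no more than 0.359 in any stage mean.

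To describe how the members varied together with other genes, the Pearson r of log2(copies + 1) over the 43 oocytes, zygotes and embryos was computed against genes at 10 or more copies in some stage (3876 or 3877 genes). These points share stage and depth, so r is a description. Yap1 was closest to Abhd17b (0.905), Agtpbp1 (0.897) and Snx9 (0.897). Stk3 was closest to A730082K24Rik (0.877), Nlrp9b (0.866) and Tex26 (0.864), Mob1a to Dnajc5 (0.874), Ppp2cb (0.867) and Snapc5 (0.864), and Nf2 to B020004C17Rik (0.871), Gm13068 (0.848) and Zfp639 (0.835). The likeness was lower for the sparse Amotl2, led by Akr1b8 (0.633), Ptges (0.630) and Ly6a (0.621), and for Lats2, led by Lasp1 (0.549), Ndufb4 (0.501) and Fabp3 (0.499).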

How the data were processed

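Single oocytes, zygotes, blastomeres and mESCs were reverse transcribed with a 10x gel bead per reaction, amplified as in SCAN-seq, pooled at about 60 blastomeres per library and sequenced on PacBio in HiFi mode. The authors made consensus reads with SMRT-Link, extracted barcodes and UMIs with scISA-Tools, used minimap2 for alignment to mm10 and gffcompare for gene assignment. Isoforms were collapsed with cDNA_Cupcake and classed with SQANTI3, and every isoform in the table was seen in 5 or more cells. Per the study's methods the deposited gene values are CPM divided by 10, a score of copies per 100,000 reads of a cell. The normalization of the deposited isoform values is not given in the sources used here, and they were read as a score of the same kind. The split-oocyte table is deposited as raw UMI counts. Whole UMIs were recovered from 100% of the values (tolerance 0.1).

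No cell was filtered out and no doublet caller was run, since cells were picked singly. Each embryo was given the mean of its cells. limma 3.58.1 (trend, array weights, R 4.3.3) was run on log2(copies + 1) of 43 oocytes, zygotes and embryos, 7 stages in 1 fit, with genes at 1 copy or more in at least 4 embryos. Calls needed an unadjusted p under 0.01 and a log2 fold change over 1, two-sided, beside Benjamini-Hochberg values. edgeR 4.0.16 (quasi-likelihood, TMM) on recovered UMIs, with its own filter, was an alternative. Other alternatives were pseudocounts of 0.1 and 5, other filters, no array weights, quantile normalization, cells with at least 10000 UMIs, summed isoforms, calls at an adjusted p under 0.05 and leaving out embryos. Scripts were tested on simulated data. p-values measure only the spread between embryos, which the names do not tie to separate litters.

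Named were all 10 members, up to 3 leading isoforms of a member and any isoform called, up to 4 called genes of the pathway list with the largest change among those at 10 or more copies, and 3 genes closest to a member. Some results that this rule selects from the pathway list are not reported here. The members and gene lists were chosen with earlier results of these data known. The number that ends a barcode in the study's cell list was taken as the sequencing run. Cells were tied to that list by matching profiles. No cell of 4-cell embryo 2 or 16-cell embryo 4 matched, and their run was filled in from the cell counts left over. In this way 23 of 43 embryos had a run. The share of isoform UMIs with a stop codon was tested for 834 genes, and 0 members had enough UMIs. Promoters are RefSeq's (GRCm38.p6), and 4 members are shown. No protein sequence or genome was used here.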

Additional observations from a re-analysis of the deposited data

Results flagged for a closer look

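Of 64 groups of 4 to 10 embryos in which a member varied, 13 held an embryo far from the others, more than the 1 in 20 that chance gives, but in most of them it was the only embryo with a UMI. Yap1 was at 47.5 copies in 4-cell embryo 2, against 4.84 to 12.8 in the other 4, from 7 UMIs in 2 cells. Mob1a was at 33.4 copies in L2C embryo 1, against 9.94 to 16.1 in the other 5, from 1 cell of 17971 UMIs. Stk3 was at 3.55 copies in L2C embryo 3 and 0 in the other 5, and at 0.602 in 4-cell embryo 4. Sav1 was at 0.736 copies in L2C embryo 6 and at 0.193 in 16-cell embryo 1. Lats2 was at 1.66 copies in oocyte 10, 0.547 in E2C embryo 1, 0.790 in L2C embryo 3 and 0.584 in 4-cell embryo 4. Tead1 was at 0.551 copies in E2C embryo 4, Lats1 at 2.16 in 8-cell embryo 2 and Amotl2 at 0.365 in 8-cell embryo 4.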

How the results depend on the processing

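No called change of a member or member isoform reversed in direction under any alternative that tested it. For the other pathway genes only the numbers called were compared, so their directions under the alternatives were not examined. From E2C to L2C the fall of Yap1 ranged from -1.53 to -1.11 over 15 alternatives and was called in each. The calls of Wwtr1, Stk3 and Nf2 there held in all 16, that of Mob1a in 15 of 16 (2.29 and not called with a pseudocount of 0.1), that of Sav1 in 12 of 13 and that of Nf2 from 4-cell to 8-cell in all 22. The alternatives that left out L2C embryo 1 with 4-cell embryo 2, or took the sequencing run as a term, were chosen after seeing the data. In edgeR with TMM, the median over the 6234 genes it tested was 0.21 from 8-cell to 16-cell and 0.25 from oocyte to 16-cell, beside 0.03 and 0.04 over the 11682 genes in limma. The cause of the changes below was not tested.

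Counts of members called became 2 from oocyte to zygote, 2 from zygote to E2C and 2 from 4-cell to 8-cell with a pseudocount of 0.1, and 2 from oocyte to 16-cell with a pseudocount of 5. edgeR, which tested 5 members where limma tested 9, gave 1 from oocyte to zygote, 1 from L2C to 4-cell and 3 from oocyte to 16-cell. Quantile normalization gave 1 from L2C to 4-cell and 3 at the next step. The stricter filter of 5 copies, cells with at least 10000 UMIs, and summed isoforms each gave 1 from L2C to 4-cell, and summed isoforms gave 1 from oocyte to 16-cell. An adjusted p under 0.05 gave 1 from oocyte to zygote and 3 from 4-cell to 8-cell. Without both shallow embryos the counts were 1 from L2C to 4-cell and 2 at the next step.

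For the other pathway genes, no array weights gave 0 from oocyte to zygote, 6 from L2C to 4-cell and 9 at the next step, and edgeR gave 0 and 8 from oocyte to zygote and from 4-cell to 8-cell. An adjusted p under 0.05 gave 12 from oocyte to zygote, 8 from zygote to E2C and 2 from 8-cell to 16-cell, and the run term gave 2 there. For isoforms, a pseudocount of 0.1 gave 5 from E2C to L2C, 2 from L2C to 4-cell and 3 from oocyte to 16-cell. No array weights gave 2 from L2C to 4-cell and 0 at the next step, edgeR, which tested 1 isoform where limma tested 6, gave 1, 0 and 0 from E2C to 8-cell, and without both shallow embryos 2 were called from L2C to 4-cell. The mean of Yap1 at 16-cell was 4.87 copies in cells with at least 10000 UMIs.

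With each embryo left out in turn, members called ranged from 0 to 1 from L2C to 4-cell, 1 to 3 from 4-cell to 8-cell and 4 to 6 from oocyte to 16-cell. Isoforms ranged from 0 to 1 from zygote to E2C (1 without E2C embryo 2 or 5), 3 to 4 from E2C to L2C, 1 to 2 from L2C to 4-cell and 0 to 1 from 4-cell to 8-cell. Other pathway genes ranged from 3 to 5 from zygote to E2C, 18 to 21 from E2C to L2C, 2 to 4 from L2C to 4-cell, 4 to 7 from 4-cell to 8-cell, 1 to 6 from 8-cell to 16-cell (1 without 16-cell embryo 1, 2 without embryo 2) and 18 to 20 from oocyte to 16-cell. Oocyte to zygote with the run as a block was not run, because the run was known for 5 of 19. No paired analysis was possible because embryo numbers name embryos within a stage and tie none across stages. Depth limits Tead1, Lats1, Lats2 and Amotl2, which mostly rest on single UMIs.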
